A study of Mus musculus with 6 samples.

Results

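Adenoma crypts induced in the mouse colon by azoxymethane (AOM) and dextran sulfate sodium (DSS) were compared with crypts of untreated mice. The members of the comparison were chosen by their titles alone: 2 arrays of crypts from adenomas and 2 arrays of crypts from control mice, 4 of the 6 arrays of the series, with all 22626 probe sets other than the manufacturer's controls. All mice were males heterozygous for Lgr5-lacZ, in which a lacZ reporter sits at the locus of the stem cell receptor Lgr5, so that both groups carried it. Each control array held crypts pooled from the distal colons of 2 mice of 6 to 8 weeks on plain drinking water. Each adenoma array held crypts pooled from 12 adenomas of 2 mice. These mice received AOM, a colon carcinogen, at 12.5 mg per kg when 6 to 8 weeks old, and 5 days later the first of 3 DSS cycles. The cycles used 2, 1.5 and 1.0% DSS in turn, each with 5 days of DSS and then 14 days of plain water. Adenomas were taken 90 days after AOM. Adenoma mice were therefore older than the control mice, and age, AOM, earlier DSS and the adenoma state cannot be told apart here. Crypts next to the adenomas were not analysed here. The 2 arrays of crypts on day 2 of 1% DSS are not compared here, but entered the shared estimate of the spread between arrays, the filter on low values and the pseudocount. The labels call the 2 arrays of a group independent biological replicates.

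The colonic crypt is a gland of one cell layer. Stem cells at its base depend on Wnt signals, and their daughters divide, move upwards and mature into absorptive colonocytes, mucus-producing goblet cells or hormone-producing enteroendocrine cells. In the AOM/DSS model the carcinogen mutates the epithelium and the repeated injury by DSS promotes tumour growth, and the tumours commonly carry mutations that stabilise beta-catenin, the effector of canonical Wnt signalling. Beta-catenin acts with factors of the TCF/LEF family, which bind a short DNA motif at their target genes.

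The promoters of the matrix metalloproteinase gene Mmp7 and of the zinc finger gene Sp5 are shown because both genes were among the Wnt targets called higher and their windows held a core TCF/LEF motif, CTTTGAT or its reverse complement ATCAAAG. Each window runs from 250 bases before to 50 bases after the RefSeq start site in build GRCm38.p6. Capitals mark the motif, and both genes lie on the plus strand.
Mmp7, chr9:7691840-7692139: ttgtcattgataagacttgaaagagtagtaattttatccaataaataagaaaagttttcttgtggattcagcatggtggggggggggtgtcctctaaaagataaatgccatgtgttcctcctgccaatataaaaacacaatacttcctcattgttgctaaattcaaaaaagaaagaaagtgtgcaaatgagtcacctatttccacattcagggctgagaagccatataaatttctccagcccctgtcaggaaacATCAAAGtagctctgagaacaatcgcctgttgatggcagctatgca
Sp5, chr2:70474673-70474972: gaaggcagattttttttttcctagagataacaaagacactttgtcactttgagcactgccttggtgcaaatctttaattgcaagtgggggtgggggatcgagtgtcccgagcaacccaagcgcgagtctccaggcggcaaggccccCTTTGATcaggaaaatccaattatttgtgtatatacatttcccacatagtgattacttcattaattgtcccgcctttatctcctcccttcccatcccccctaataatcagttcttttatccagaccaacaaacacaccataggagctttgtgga
The motif began 5 bases past the Mmp7 start site and 104 bases before the Sp5 start site. Of 19 windows found for 12 of the called Wnt target genes, 5 windows of 4 genes (Mmp7, Sp5, Tnfrsf19 and Tgif1) held it, as did 0 of 6 windows of 5 called Wnt inhibitor genes. It occurred on either strand in 3.73% of all 32851 promoter windows, in 2.42% of the windows of tested genes, in 3.11% of those of genes called higher and in 2.18% of those of genes called lower. The motif CAAAGTCC or its reverse complement, bound by HNF4 factors, was in 0 of 16 windows of 15 called colonocyte genes in 2.7% of the windows of genes called lower, in 1.38% of those of tested genes and in 1.42% of all windows. A match describes these letters in the window and is no evidence of binding.

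Of 12393 genes with a probe set of their own, 7456 passed a filter that kept probe sets above the array median on at least 2 of the 6 arrays. Changes are log2 differences of the MAS5 intensity plus 17.8, adenoma minus control, with the standard error from limma, and a gene was called at a Benjamini-Hochberg adjusted p under 0.05. limma called 954 genes higher in adenoma crypts, 12.8% of those tested, and 726 lower, 9.74%, so that 22.5% changed in either direction. Counts of calls in the gene groups below are to be read beside these shares. The adenoma and control arrays did not overlap in any called gene, but they also did not overlap in 61.5% of all tested genes. Of the higher calls, 287 were of genes that passed the filter only through the adenoma arrays and so had to be higher there. Among the other 7063 genes 667 (9.44%) were called higher and 726 (10.3%) lower. Of the called genes 114 rose and 17 fell by at least 3 on the log2 scale. The 114 were not split by the filter, and of the 12 largest rises all but Mgp passed it only through the adenoma arrays. The split of the calls depended on scaling. With each array centred on its median the calls were 651 higher and 1227 lower, 34.7% higher in place of 56.8%, and the median difference of all genes moved from 0.05 to -0.20, and with quantile normalisation they were 880 and 908. With adenoma array 2 left out 517 genes were called higher and 438 lower, and with control array 2 left out 504 and 340.

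**Figure D1:**
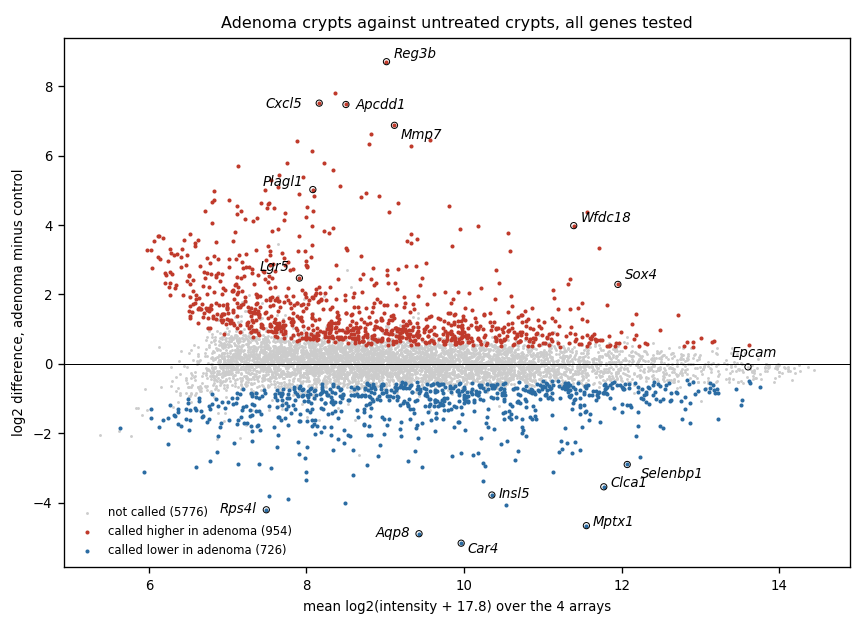
Each point is one of the 7456 genes tested. The x axis is the mean of log2(intensity + 17.8) over the 4 arrays and the y axis the log2 difference, adenoma minus control; red points were called higher (954), blue points lower (726) and grey points were not called. The largest rises, such as Reg3b at 8.71, are of genes whose control values were near background, while the epithelial gene Epcam lies near 0 at -0.09.

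Median intensities were 96.8 and 101 on the control arrays and 112 and 131 on the adenoma arrays. Pearson's r of log2 intensities over the tested genes was 0.971 between the control arrays, 0.959 between the adenoma arrays and 0.811 to 0.876 between an adenoma and a control array. The excess of 3′ over 5′ signal of actin, a sign of RNA quality, was on the log2 scale 0.95 and 1.04 on the adenoma arrays and 1.20 and 1.63 on the control arrays, and its part in the differences was not tested. Epithelial marker genes were high on all 4 arrays. Epcam had intensities of 12936 and 12682 on the control arrays and 12781 and 11358 on the adenoma arrays, and the adhesion gene Cdh1 (E-cadherin) 9202 and 8669 against 8256 and 9704. The summed intensity of 19 pan-epithelial genes was 113621 and 106777 in control crypts and 109459 and 106049.7 in adenoma crypts, ranges that overlapped.

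The largest rises were a mixture of Wnt inhibitors, antimicrobial lectins, a neutrophil attractant and genes near background in control crypts. Apcdd1, a membrane-bound Wnt inhibitor, had intensities of 16.5 and 3.79 on the control arrays and 4335 and 5329.9 on the adenoma arrays, a log2 rise of 7.47 ± 0.29 (SE, adjusted p = 7e-06). Wif1, a secreted inhibitor that binds Wnt ligands, had 34.7 and 22.1 against 3896 and 5130.4 and rose by 6.62 ± 0.24 (adjusted p = 6.65e-06). In both genes the adenoma arrays lay close together. All of the 12 largest rises but Mgp passed the filter only through the adenoma arrays and so had to be higher there. The 12 largest rises and falls were picked among genes whose groups did not overlap. Mt4, a metallothionein typical of stratified epithelium, had 67.3 and 59 against 6606 and 7582 (6.46 ± 0.18, adjusted p = 1.66e-06). Ptn, the growth factor pleiotrophin, had 4.22 and 91.5 against 3219.5 and 4899 (6.35 ± 0.69), and Mgp, the calcification inhibitor matrix Gla protein, 21.6 and 119 against 5199 and 6073 (6.26 ± 0.62). In both, control array 2 was the higher control array. Arg1, which hydrolyses arginine, had 13.1 and 9.31 against 1262 and 1999 (5.80 ± 0.32, adjusted p = 4.83e-05). The 12 largest rises, from 5.80 to 8.71, were 6.76 to 10.06 with a pseudocount of 1 and 3.84 to 6.52 with a pseudocount at the median of all values, since most control values lay near or below 17.8.

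The 12 largest falls included genes of mature colonocytes and transport, such as Car4 and Aqp8, beside single genes of other lists and of none. Car4, a membrane-bound carbonic anhydrase, had intensities of 5253 and 6784 on the control arrays and 72.1 and 290.0 on the adenoma arrays, a log2 change of -5.17 ± 0.51 (adjusted p = 0.000437). Aqp8, a water and peroxide channel, had 3036 and 4612 against 78.8 and 147 (-4.90 ± 0.36, adjusted p = 0.000123). Mptx1, a pentraxin made in the mouse intestine, had 17436 and 13078 against 444 and 753 (-4.66 ± 0.33, adjusted p = 0.000109). In all 3 genes both adenoma arrays lay far below both control arrays. Dpep1, a brush border dipeptidase, had 1432 and 1444 against 130.0 and 36.3 (-4.03 ± 0.44), and Tgm3, a transglutaminase, 693 and 905 against 55.4 and 68.7 (-3.35 ± 0.20). The actin-severing gene Scin had 4084 and 3740.2 against 404 and 315 (-3.39 ± 0.17, adjusted p = 3.85e-05). Rps4l, a copy of a ribosomal protein gene whose probes may be shared with its paralog, had 819 and 695 against 3.82 and 63.3 (-4.21 ± 0.51). Ogn, the small leucine-rich proteoglycan osteoglycin, had 519 and 871 against 13.1 and 59.4 (-3.82 ± 0.41).

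**Figure D2:**
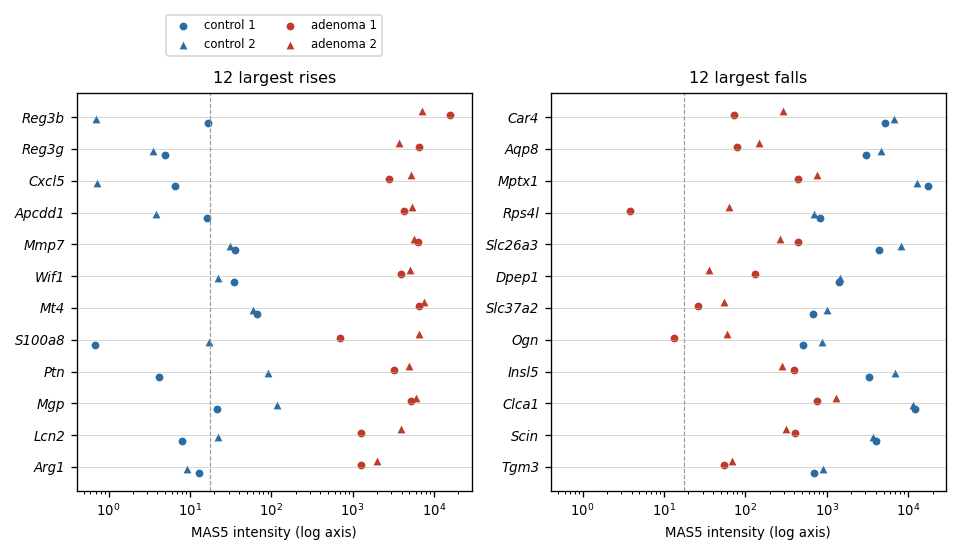
MAS5 intensity on a log axis of the 12 largest rises (left) and the 12 largest falls (right) on the 4 arrays: blue for control, red for adenoma, circles for array 1 and triangles for array 2. The dashed line is the pseudocount of 17.8. Several control values of the rises lie below it, and the genes shown were picked among those without overlapping groups.

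Genes of mature colonocytes and their brush border fell together: 18 of 30 tested were called lower and 0 higher, with a median log2 difference of -1.08 beside 0.05 over all genes, and 14 to 19 were called lower whichever array was left out. In whole crypts, fewer cells of a type and less RNA per cell cannot be told apart. Selenbp1, a selenium-binding protein and methanethiol oxidase of the upper crypt, had 11387 and 12100.4 on the control arrays and 1730.3 and 1398 on the adenoma arrays (-2.90 ± 0.16, adjusted p = 5.15e-05). Car1, a cytosolic carbonic anhydrase abundant in the colon, had 9564 and 12044 against 4257 and 2212 (-1.80 ± 0.28, adjusted p = 0.0034). Fabp2, the intestinal fatty acid-binding protein, had 3374 and 3128 against 794 and 229 (-2.87 ± 0.48, adjusted p = 0.00456), with adenoma array 2 the lowest. By contrast Krt20, a keratin of differentiated cells, had 5294 and 3855 against 3428 and 3667 and did not pass (-0.35 ± 0.19, adjusted p = 0.215).

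Genes that move ions, water and butyrate across the colonic epithelium were lower in 22 of 34 tested cases and higher in 0, with a median of -1.08, and 18 to 22 were called lower with an array left out. Slc26a3, the chloride and bicarbonate exchanger, had 4451 and 8237 on the control arrays and 442 and 269.9 on the adenoma arrays (-4.06 ± 0.35, adjusted p = 0.000243). Slc26a2, a sulfate transporter that feeds mucin sulfation, had 6610.3 and 6782 against 1295 and 1086 (-2.48 ± 0.17, adjusted p = 9.37e-05). Slc5a8, a sodium-coupled transporter of butyrate, had 3615 and 3600.4 against 835 and 854 (-2.07 ± 0.14, adjusted p = 0.000105). Slc37a2, a sugar phosphate exchanger, had 673 and 1003 against 26.1 and 55.5 (-3.89 ± 0.29). Among further genes, chosen after their values were seen, the butyrate and lactate carrier Slc16a1 had 7493 and 8085 against 3719.6 and 3187 (-1.17 ± 0.15, adjusted p = 0.00124). The chloride channel Cftr had 1802 and 1639.5 against 662 and 410.5 (-1.69 ± 0.23, adjusted p = 0.00173). Several genes, such as Car4, Aqp8 and Slc26a3, sit in both this group and the colonocyte group.

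Both secretory lineages of the normal colon were lower. Goblet cell genes were called lower in 17 of 24 tested cases and higher in 0, with a median of -1.08. The count was 11 without control array 1 or 2, 12 without adenoma array 2 and 20 without adenoma array 1. Clca1, a secreted protein that processes mucus, had 12342 and 11543 on the control arrays and 769 and 1315 on the adenoma arrays (-3.54 ± 0.23, adjusted p = 9.17e-05). Atoh1, the transcription factor that commits progenitors to the secretory fate, had 986 and 1076 against 379 and 254 (-1.67 ± 0.22, adjusted p = 0.00163). Not every goblet product moved as far: the protease inhibitor Spink4, chosen after its values were seen, had 16127 and 14313 against 16918 and 12256 and did not pass (-0.08 ± 0.18, adjusted p = 0.792). The gene of the mucin Muc2 had no probe set of its own. Glycosyltransferases and sulfotransferases that build mucin glycans were lower in 7 of 21 tested cases and higher in 0 (median -0.46), with 4 lower calls without control array 1 or without adenoma array 2. Not every enzyme of this list acts on mucins alone. Among its members the sialyltransferase St3gal4 had 2406 and 1587 against 216 and 256 (-2.96 ± 0.23, adjusted p = 0.000153) and St6gal1 2874 and 2198 against 885 and 756 (-1.60 ± 0.19).

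Enteroendocrine genes were called lower in 10 of 16 tested cases and higher in 2, with a median of -1.03, and 5 were lower without control array 2 or without adenoma array 2. Insl5, a hormone of distal colonic L cells, had 3339.6 and 6989.6 on the control arrays and 401 and 279 on the adenoma arrays (-3.78 ± 0.33, adjusted p = 0.000246). Gcg, which encodes proglucagon, had 1031 and 1278 against 112 and 107 (-3.20 ± 0.22, adjusted p = 9.37e-05). The members called higher went the other way, and 1 of these 2 passed the filter only through the adenoma arrays. Isl1, a homeodomain factor of endocrine cells, had 133 and 187 against 974 and 896 (2.44 ± 0.22, adjusted p = 0.000303), and Slc18a1, a vesicular monoamine transporter, 47 and 39.6 against 239.7 and 428 (2.47 ± 0.32). Just 3 of 12 tuft cell genes on the array passed the filter, with 1 positive and 2 negative log2 differences and a median of -0.03. The positive member was Avil, an actin-binding protein of tuft cells, at 70.1 and 53.2 against 905 and 1363 (3.84 ± 0.34, adjusted p = 0.00027). Avil passed the filter only through the adenoma arrays.

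Transcription factors of intestinal identity were lower in 8 of 22 tested cases and higher in 1 (median -0.52). The lower count was 4 without control array 1 or without adenoma array 2. Vdr, the vitamin D receptor, had 1602 and 1908 on the control arrays and 469 and 486 on the adenoma arrays (-1.83 ± 0.17, adjusted p = 0.000293). Nr5a2, a nuclear receptor of crypt cells, had 828 and 713 against 173 and 119.7 (-2.28 ± 0.21), although its other probe sets gave -1.46 to -0.16. Hnf4a, a nuclear receptor of enterocyte genes, had 7604 and 5253 against 4163 and 3442 and just passed (-0.74 ± 0.22, adjusted p = 0.0468). Its call ended at -0.64 with quantile normalisation, -0.47 without control array 1, -0.60 without adenoma array 2 and -0.74 without DSS array 1. Cdx2, the caudal factor that sets intestinal identity, had 826 and 352 against 447 and 207, values that overlapped (-0.79 ± 0.44, adjusted p = 0.234). Gata5 was the member called higher, at 19.5 and 7.73 against 157 and 194 (2.65 ± 0.38). It passed the filter only through the adenoma arrays, and 0 of the other 21 factors were higher. Of 8 Hox genes tested, Hoxa9 was higher at 0.80 ± 0.15, a call that ended at 0.55 with median centring, and Hoxb13 had -0.66 ± 0.17, a call that ended without control array 1 (-0.58), control array 2 (-0.73) or adenoma array 2 (-0.62).

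**Figure D3:**
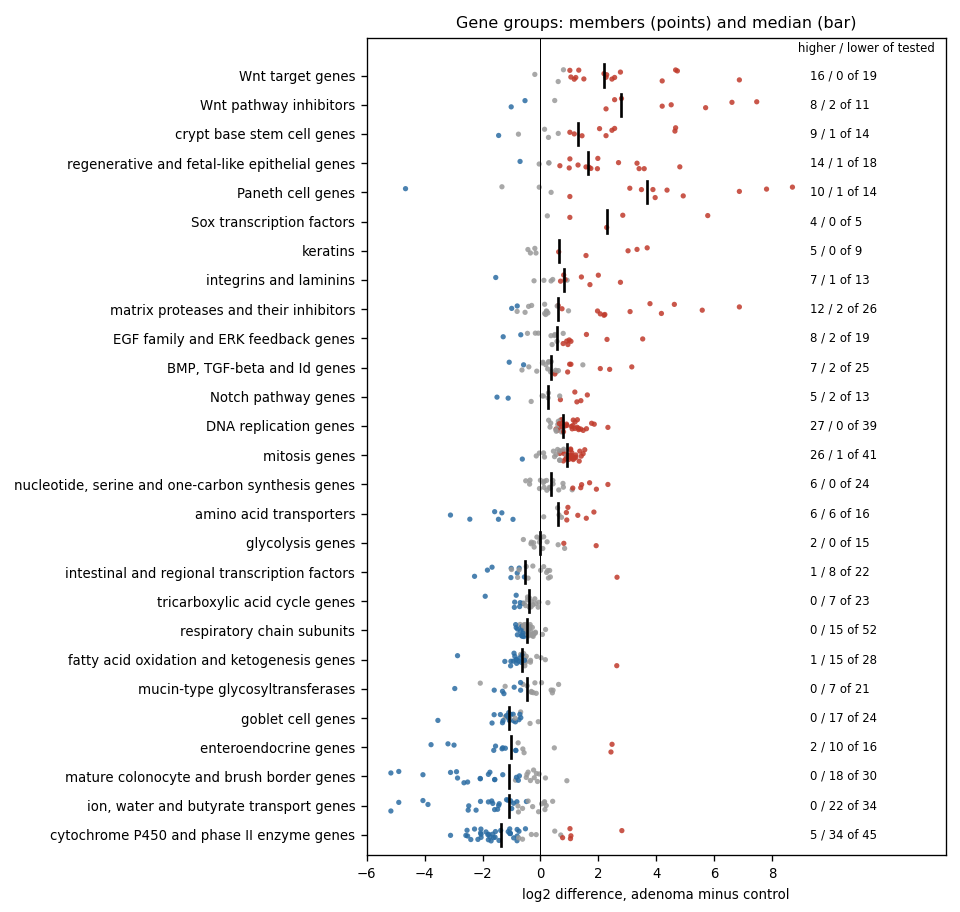
Each row is a gene group and each point a tested member, at its log2 difference, adenoma minus control (x axis). Red marks a call higher, blue a call lower and grey no call, black bars are group medians, and the right column counts higher and lower calls of the genes tested. Colonocyte, transport, goblet and detoxification genes lie to the left, with medians of -1.08 to -1.38, and Wnt, Paneth and regenerative genes to the right.

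Enzymes that oxidise or conjugate foreign compounds fell as a group: of 45 tested cytochrome P450 and phase II genes 34 were called lower and 5 higher, with a median of -1.38, and 23 to 33 were called lower with an array left out. The higher count was 2 without control array 1 and 3 without adenoma array 2. Cyp3a13 had 1990.4 and 2942 on the control arrays and 461 and 331 on the adenoma arrays (-2.58 ± 0.23, adjusted p = 0.000293). Cyp2s1 had 688 and 574 against 136 and 140.1 (-2.05 ± 0.18), and the glutathione transferase Gstm2 1096 and 1103 against 281 and 289.8 (-1.88 ± 0.16, adjusted p = 0.000231). Adenoma values of these genes lay close together and well below both control values. Cyp2b10, a xenobiotic-induced P450, was among the 5 higher, at 8.94 and 36.3 against 320.1 and 193 (2.81 ± 0.48), as was the epoxide hydrolase Ephx1, at 181 and 249 against 441 and 468 (1.04 ± 0.20). Cyp2b10 passed the filter only through the adenoma arrays, and of the other 44 genes of the group 4 were higher. Many of these families have near-identical members that share probes, so single members are uncertain.

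Fatty acid oxidation and ketogenesis genes were lower in 15 of 28 tested cases and higher in 1 (median -0.65). The lower count was 8 without either control array, 6 without adenoma array 2 and 17 without adenoma array 1. Acaa2, a thiolase of mitochondrial beta-oxidation, had 1318 and 1718 on the control arrays and 647 and 614 on the adenoma arrays (-1.23 ± 0.20, adjusted p = 0.00366). The member called higher was Pdk4, a kinase that shuts off pyruvate dehydrogenase, at 17.1 and 32.4 against 173 and 336 (2.64 ± 0.43). Pdk4 passed the filter only through the adenoma arrays, and 0 of the other 27 genes were higher. Tricarboxylic acid cycle and linked genes were lower in 7 of 23 cases and higher in 0 (median -0.39), with 2 lower calls without either control array or without adenoma array 2. Pck1, a gluconeogenic carboxykinase, had 576 and 786 against 218 and 126 (-1.91 ± 0.26) but -0.25 on its other probe set. Respiratory chain subunits were lower in 15 of 52 cases and higher in 0 (median -0.48). This count rested on single arrays: it was 6 without control array 1, 1 without control array 2, 7 and 8 without the first or second DSS array, 28 without adenoma array 1 and 0 without adenoma array 2. With median centring 24 were lower and with quantile normalisation 20. Ndufa6, a complex I subunit, had 9446 and 11719 against 6555 and 5123 (-0.86 ± 0.17), and lost its call without control array 2 (-0.70) or adenoma array 2 (-0.68). Glycolysis genes had a median of -0.02, which turned positive with quantile normalisation, and 2 of 15 were called higher, 1 without either control array or adenoma array 2 and 4 without adenoma array 1. One of them, the lactate dehydrogenase subunit Ldhb, had 129.6 and 98.6 against 500.3 and 459 (1.92 ± 0.22, adjusted p = 0.00088).

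Amino acid transporters split, with 6 of 16 called higher and 6 lower. Of the higher members 3 passed the filter only through the adenoma arrays, and among the other 13 genes 3 were higher and 6 lower. Lower were uptake systems of the brush border, such as Slc15a1, a peptide transporter, at 614 and 869 on the control arrays and 51.4 and 90.7 on the adenoma arrays (-3.11 ± 0.35, adjusted p = 0.000765). Slc6a14, a broad amino acid importer, had 4824 and 6595 against 1083 and 968 (-2.44 ± 0.21, adjusted p = 0.000251). The higher members, with log2 differences from 0.90 to 1.85 and named after their values were seen, were Slc3a2, Slc7a7, Slc1a4, Slc7a6, Slc7a5 and Slc7a8. Slc3a2 and Slc7a5 are the chains of a large neutral amino acid exchanger. The higher count was reduced to 0 without control array 2 and to 1 without adenoma array 2. Genes of nucleotide, serine and one-carbon synthesis were higher in 6 of 24 cases and lower in 0 (median 0.38), and 6 to 9 were higher with an array left out. Psat1, an aminotransferase of serine synthesis, had 149.5 and 91.5 against 392 and 451 (1.70 ± 0.26, adjusted p = 0.00307). Rrm2, the regulated subunit of ribonucleotide reductase, had 277 and 169 against 1043 and 1293 (2.33 ± 0.28, adjusted p = 0.000929). The 39 cytosolic ribosomal protein genes tested had a median of -0.13, which turned positive with quantile normalisation.

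**Figure D4:**
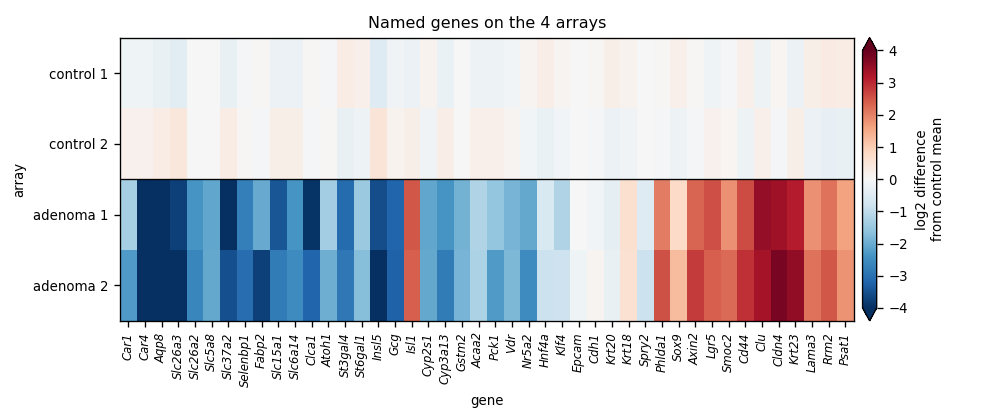
Log2 difference of each array from the control mean (colour, 1 array per row) for named genes (columns), grouped from colonocyte and transport genes on the left through epithelial genes to stem cell, regenerative and proliferation genes on the right. The adenoma arrays agree in sign for the genes at either end, and Epcam and Cdh1 stay near 0; colours are capped at 4 in either direction.

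Wnt target genes were higher in 16 of 19 tested cases, with a median of 2.20, and 10 of the 13 that did not pass the filter through the adenoma arrays alone were called. Mmp7 had 36.3 and 30.8 on the control arrays and 6283 and 5709 on the adenoma arrays (6.87 ± 0.20, adjusted p = 1.66e-06), and Sp5, chosen after its values were seen, 2.23 and 6.56 against 461 and 699 (4.73 ± 0.38). These are the genes whose promoters are printed with their motif. Sox4, a transcription factor of progenitors, was well above background in both groups, at 2028 and 1552 against 8699 and 8777 (2.29 ± 0.17, adjusted p = 0.000139). Cd44, a hyaluronan receptor, had 183 and 136 against 1062 and 1301 (2.76 ± 0.24), and Myc 332 and 255 against 635 and 776 (1.22 ± 0.23, adjusted p = 0.00685). Among secreted and intracellular Wnt inhibitors 8 of 11 were higher and 2 lower (median 2.80), with 8 higher and at most 1 lower whichever array was left out. Of the 5 tested otherwise than through the adenoma arrays alone, 2 were higher. Dkk2, a Dickkopf protein that blocks Wnt coreceptors, had 0.177 and 2.98 against 977 and 1003 (5.71 ± 0.34, adjusted p = 6.45e-05). Nkd1, an intracellular inhibitor, had 15.4 and 27.1 against 607 and 794 (4.21 ± 0.32). The ligands Wnt6, at 63 and 59.3 against 399 and 761 (2.85 ± 0.32), and Wnt10a, at 12.4 and 12.5 against 187 and 327 (3.14 ± 0.39), were the higher members among 9 tested ligands and receptors. Both passed the filter only through the adenoma arrays, and 0 of the other 7 were higher. Apc and Ctnnb1, which encode the scaffold and beta-catenin itself, did not pass in the probe sets used (0.05 ± 0.20 and 0.32 ± 0.14). The other probe sets of Ctnnb1 gave 0.77 and 0.85. In the probe set used, Ctnnb1 was called higher with quantile normalisation (0.54, adjusted p = 0.0073) and was 0.07 with median centring. The arrays give no sequence of either gene.

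Crypt base genes were higher in 9 of 14 cases and lower in 1. Lgr5 passed the filter only through the adenoma arrays. Of the 12 crypt base genes tested otherwise than through these arrays alone 7 were higher. Lgr5, where the reporter sits, had 72.5 and 97.8 on the control arrays and 587 and 513 on the adenoma arrays (2.47 ± 0.32, adjusted p = 0.0015), and Smoc2, a secreted matrix protein of the crypt base, 476 and 542 against 1832 and 2517 (2.04 ± 0.23), with 0.48 on its other probe set. The lower member was Aqp4, a water channel of the colonic crypt base, at 5187 and 5055 against 2186 and 1595 (-1.45 ± 0.20, adjusted p = 0.002). Genes of regenerating or fetal-like epithelium were higher in 14 of 18 cases and lower in 1, with a median of 1.63, and 11 or more were higher with an array left out. In the fit of all arrays, 11 of the 15 tested otherwise than through the adenoma arrays alone were higher. Clu, a secreted chaperone that marks cells emerging after injury, had 229.9 and 305 against 3186 and 2792 (3.41 ± 0.23, adjusted p = 9.37e-05). Cldn4, a claudin rare in the normal colon, had 188 and 166 against 2011 and 2668 (3.58 ± 0.20, adjusted p = 5.78e-05), and the keratin Krt23 78.3 and 116 against 982 and 1297 (3.34 ± 0.24). Of 14 tested claudins and tight junction genes Cldn4 was the member called higher, and the median of 0.08 turned negative with median centring. Among keratins, Krt14 had 28.6 and 19.1 against 343 and 297 (3.03 ± 0.28), and the hair keratin Krt36 41.6 and 56.7 against 902 and 780.4 (3.69 ± 0.26), and 5 of 9 keratins were higher. Krt14 and Krt36 passed the filter only through the adenoma arrays, and of the other 7 keratins 3 were higher.

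Paneth cell genes, which the normal mouse colon expresses little, were higher in 10 of 14 tested cases and lower in 1, with a median of 3.69. Of the 9 that did not pass the filter through the adenoma arrays alone 5 were higher, and 7 were higher in all without control array 2. Lyz1, the Paneth lysozyme, chosen after its values were seen, had 438 and 948 on the control arrays and 15371 and 12257 on the adenoma arrays (4.37 ± 0.40, adjusted p = 0.000293), though its near-identical neighbour Lyz2 of macrophages may share its signal. Pla2g2a, a bactericidal phospholipase, had 75.9 and 47.9 against 1952 and 2896 (4.93 ± 0.27, adjusted p = 4.83e-05). Reg3b and Reg3g, secreted C-type lectins of gut defence, had 16.9 and 0.694 against 15772 and 7062, and 4.89 and 3.54 against 6512 and 3715. For both lectins, as for Lyz1, adenoma array 1 was the higher. Mptx1, described among the largest falls, was the member called lower. The Paneth list also held Mmp7, Lyz2 and Sox9, all called higher, which sit in other lists here too. Its defensin gene Defa3 stayed below 17.8 on all 4 arrays. Sox17, an endoderm and endothelial factor, had 16.9 and 28.8 against 1967 and 2439 (5.78 ± 0.34, adjusted p = 6.45e-05), and Sox21, a factor of foregut epithelium, 6.6 and 27 against 258 and 186 (2.84 ± 0.41). Of 5 Sox genes tested 4 were higher. Sox17 and Sox21 passed the filter only through the adenoma arrays, and of the other 3 Sox genes 2 were higher. Sox9, the Wnt-responsive factor of the crypt base, had a log2 difference of 1.01 and lost its call without control array 2 (0.83) or adenoma array 2 (0.77).

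Genes of matrix cleavage and cell adhesion to the matrix were called higher more often than lower. Matrix proteases and their inhibitors were higher in 12 of 26 cases and lower in 2 (median 0.60). Of the 19 tested otherwise than through the adenoma arrays alone 5 were higher. The counts were 9 higher without control array 2 or adenoma array 2 and 4 lower without adenoma array 1. Plat, the tissue plasminogen activator, had 22.7 and 35.4 on the control arrays and 1617 and 3033 on the adenoma arrays (5.59 ± 0.34, adjusted p = 6.45e-05), and the serine protease Prss22 11.5 and 23.9 against 445 and 846 (4.18 ± 0.38). Integrins, laminins and their partners were higher in 7 of 13 cases and lower in 1 (median 0.80). The higher count was 3 without adenoma array 2 and 4 without control array 2. Lama3, a laminin chain of the epithelial basement membrane, had 444 and 315 against 1368 and 1753 (2.00 ± 0.22, adjusted p = 0.000682). Dst, which links hemidesmosomes to keratin, was the lower member at 590.4 and 764 against 198 and 241 (-1.55 ± 0.21, adjusted p = 0.00178).

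Signalling groups gave mixed calls. EGF family and ERK feedback genes were higher in 8 of 19 cases and lower in 2 (median 0.57), with 3 higher without adenoma array 2 and 4 without control array 2, and 0 lower without either control array. Phlda1, an ERK-induced pleckstrin protein, had 1186 and 1089 on the control arrays and 4726 and 6776 on the adenoma arrays (2.30 ± 0.20, adjusted p = 0.000246). Ier3, an early response gene, had 167 and 162 against 1582 and 2749 (3.53 ± 0.26, adjusted p = 0.00012), whereas Egfr did not pass (0.50 ± 0.30, adjusted p = 0.269). BMP, TGF-beta and Id genes were higher in 7 of 25 cases and lower in 2 (median 0.37), with 4 higher without control array 2 or adenoma array 2. Bambi, a decoy receptor of the family, had 145 and 235 against 1006 and 689.7 (2.07 ± 0.27, adjusted p = 0.00146). Inhbb, an activin subunit, had 21.7 and 1.25 against 160.3 and 316 (3.15 ± 0.50) in the probe set used, while its other probe set gave -0.12. Inhbb passed the filter only through the adenoma arrays, and of the 23 genes of its group tested otherwise 5 were higher. Notch pathway genes were higher in 5 of 13 cases and lower in 2, with 1 higher without either control array or without adenoma array 2. Hes6, an inhibitor of Hes1, had 1062 and 1034 against 3573 and 2964 (1.62 ± 0.16, adjusted p = 0.000485), and Nrarp, a Notch feedback gene, 434 and 414 against 228 and 151 (-1.12 ± 0.22). Lipid mediator genes included opposite changes: the lipoxygenases Alox12 and Alox15 rose by 4.42 ± 0.31 and 3.75 ± 0.40, though both passed the filter only through the adenoma arrays, as did all 3 higher members of this list, and 0 of the other 10 were higher. Hpgd, which degrades prostaglandins and was chosen after its values were seen, had 5526 and 6348 against 1802 and 819 (-2.27 ± 0.32). The prostaglandin synthase Ptgs2 did not pass the filter, with 18.1 and 46.2 against 78.4 and 786.

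Cell cycle genes were higher, DNA replication in 27 of 39 cases and mitosis in 26 of 41, with 0 and 1 lower. Without control array 2 the counts were 11 and 15, without adenoma array 2 the replication count was 12, and with median centring it was 15. In the main fit, 23 of 32 replication and 26 of 40 mitosis genes tested otherwise than through the adenoma arrays alone were higher. Top2a, a topoisomerase of dividing cells, had 786 and 728 on the control arrays and 1989.8 and 2284 on the adenoma arrays (1.47 ± 0.16), with -0.10 on its other probe set. Mki67, which marks cycling cells, had 1071 and 1014 against 1349 and 2035 and did not pass (0.66 ± 0.23, adjusted p = 0.0721). A list of cell cycle inhibitors and p53 targets also held the kinase Cdk4. In it 6 of 33 were higher and 2 lower, against 5 and 6 with median centring. The median of 0.04 turned negative there, with quantile normalisation, with the 75th percentile filter and without control array 1 or adenoma array 2. Cdkn1c, an imprinted CDK inhibitor, had 78 and 43.3 against 409.7 and 541 (2.68 ± 0.30, adjusted p = 0.000703), and Cdk4 669 and 633 against 1583 and 1562 (1.25 ± 0.16). Cdkn1c passed the filter only through the adenoma arrays, and of the other 32 genes of this list 5 were higher. The p53 target Cdkn1a did not pass (-0.33 ± 0.16, adjusted p = 0.161), and Cdkn2a was below the filter at 3.8 and 2.68 against 58.6 and 66.5. Of 15 genes often mutated in colorectal tumours, 2 were higher and 0 lower, beside 12.8% and 9.74% of all genes tested.

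Markers of other cell types differed between the 2 arrays of each group, and fibroblast, smooth muscle and macrophage genes were higher on array 2 in both groups. The median log2 difference of array 2 from array 1 was 0.77 in control and 2.13 in adenoma crypts for fibroblast genes, 2.18 and 1.30 for smooth muscle genes, and 1.33 and 1.86 for macrophage genes. The summed intensity of 26 fibroblast genes, Vim among them, was 3788 and 7572 on the control arrays and 6108.5 and 18586.5 on the adenoma arrays. Of 18 tested, 9 had a positive and 9 a negative log2 difference (median -0.16), with 4 called higher and 1 lower. Without adenoma array 2 the counts were 2 and 10, and without adenoma array 1 they were 8 and 1. Collagen genes did not follow the sum: Col3a1, the collagen of reticular fibres and chosen after its values were seen, had 859.8 and 1580.3 against 307 and 2278, and adenoma array 1 lay below both control arrays. Vim, an intermediate filament of mesenchymal cells, had 287 and 799.9 against 3477 and 6413 (3.25 ± 0.52, adjusted p = 0.00388). On adenoma array 1 Vim alone held 3477 of the fibroblast sum of 6108.5. Macrophage and dendritic cell genes summed to 2445.5 and 3526 against 5985.5 and 13187, and without Lyz2 to 2326.0 and 3065 against 3230.2 and 8033. Neutrophil genes summed to 187 and 261 against 1444 and 14798, and without S100a8, S100a9 and Il1b to 128 and 156 against 279 and 1853. Of these genes 3 of 16 on the array passed the filter, all through the adenoma arrays. One of them, the calprotectin subunit S100a9, had 8.65 and 16 against 281 and 4555 (5.29 ± 1.02), or 3.32 without adenoma array 2. The granule genes Elane and Mpo stayed below 17.8 on all 4 arrays. Endothelial genes summed to 419 and 962 against 2849.5 and 5368, but without Sox17 to 402 and 934 against 883 and 2929, values that overlapped. B and plasma cell genes summed to 358 and 2849.5 against 301 and 2194, and smooth muscle genes to 4118 and 8311 against 3599 and 4417, with array 2 the higher in each group and overlapping groups. T and NK cell genes summed to 340 and 298 against 263 and 595, with none tested and Cd4 and Cd8b1 below 17.8, and the leukocyte gene Ptprc had 165 and 207 against 73.4 and 415. The part of these cells in the rises of chemokines, proteases and Vim was not tested.

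**Figure D5:**
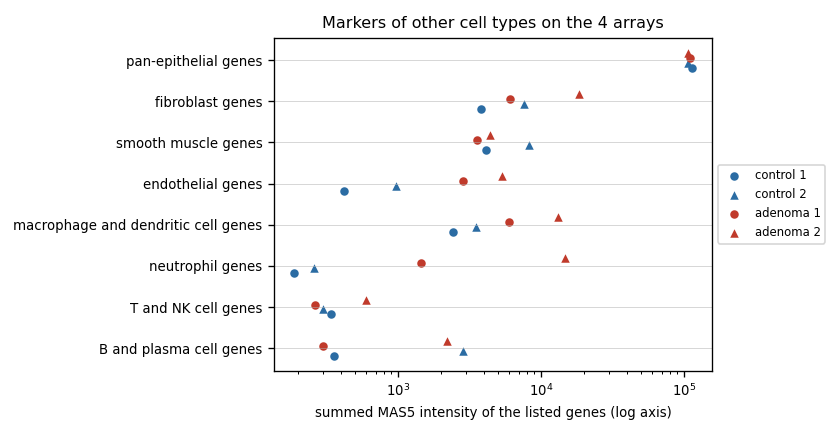
Summed MAS5 intensity of the genes of each marker list (x axis, log scale) on the 4 arrays: blue for control, red for adenoma, circles for array 1 and triangles for array 2. Pan-epithelial sums lie together near 109459, while neutrophil sums run from 187 to 14798 and are highest on adenoma array 2.

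The adenoma arrays also differed from each other in genes of interferon response and antigen presentation. Over all tested genes the median of adenoma array 2 minus adenoma array 1 was 0.02 on the log2 scale, and 244 genes were more than 1 higher and 30 more than 1 lower on array 2. MHC class II genes had a median of 2.04 between the adenoma arrays, with 5 of 7 over 1, and 0.29 between the control arrays. Interferon-stimulated genes had a median of 0.88, with 11 of 29 over 1, and -0.55 between the control arrays. With 1 array on each side these differences have no test. Against control, 3 of the 29 interferon genes were called higher and 1 lower, 11 higher without adenoma array 1 and 0 higher without adenoma array 2 or control array 2. Over all tested genes 12.8% were called higher and 9.74% lower with all arrays. Iigp1, an interferon-inducible GTPase and chosen after its values were seen, had 396 and 303 on the control arrays and 106 and 1013 on the adenoma arrays, so that the control values lay between them. Chemokines of neutrophils were higher on both adenoma arrays: Cxcl5 had 6.5 and 0.725 against 2812 and 5263 (7.51 ± 0.34, adjusted p = 1.72e-05) and Cxcl2 14.6 and 28.2 against 693 and 3572 (5.37 ± 0.65, adjusted p = 0.00104). Both passed the filter only through the adenoma arrays. Of 14 tested chemokines 6 were higher and 2 lower, and of the 9 tested otherwise than through the adenoma arrays alone 2 were higher. Ccl28, a chemokine of mucosal plasma cells, went the other way at 281 and 247 against 111 and 65.8 (-1.44 ± 0.26, adjusted p = 0.00612).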

How the data were processed

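Messenger RNA was hybridised to Affymetrix mouse arrays of 22690 probe sets, 64 of them controls, with 2 ug of total RNA per array. The deposited values were linear signal intensities computed with MAS5, per the submitters' processing notes, which name no version. The mean of each array without the outer 2% of probe sets at either end was near 500.2, so arrays were already scaled alike. Having 2 arrays a group limits the precision. The platform annotation gave 20380 probe sets 1 symbol, 691 several and 1555 none, and 99.9% of the first were found in RefSeq by gene identifier.

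A constant of 17.8, the 25th percentile of all values, was added before taking log2. Of the probe sets, 12146 exceeded the median of an array on 2 or more arrays, and for each gene the brightest of these on average was used. limma 3.58.1 (R 4.3.3) fitted all 3 groups with an intensity trend, and 2-sided p-values were adjusted by Benjamini-Hochberg over 7456 genes. The fit was tested on simulated data. Groups were read from the sample titles.

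Gene lists (58) held 1430 genes with their own probe set, of which 979 were tested. Genes named in the text were drawn from the 12 strongest rises and the 12 strongest falls without overlap of the groups. Others came from each list, as the 3 called genes of smallest p and up to 2 called against its median. In addition 21 genes were set by name. Not all genes chosen in these ways are described in the text. Any other gene named for its change carries the remark that its values had been seen. The members and lists were chosen with earlier results of these data known. Scaling, pseudocount, filter, probe set choice, trend, groups fitted, blocking by replicate number and omission of single arrays were varied. Figures used matplotlib 3.10.9.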

Additional observations from a re-analysis of the deposited data

How the results depend on the processing

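Leaving out each array in turn gave 504 to 996 genes higher and 340 to 747 lower, with the lowest counts without control array 2. A filter at the 75th percentile of each array tested 4160 genes and gave 518 higher and 581 lower. Median centring gave 651 higher and 1227 lower. With no filter the sign of Inhbb turned to -0.12, because its other probe set then stood for the gene. The other settings stayed within 1.5 times both counts of 954 and 726: quantile normalisation, other pseudocounts, no filter (887 and 557), a filter on the mean, probe set averages, all probe sets, no intensity trend (910 and 641) and the 2 groups fitted alone (801 and 543).

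With the replicate number as a replicate block the counts were 1098 and 846 over 3 groups and 961 and 675 over the 2 groups. Deviations of same-numbered control and adenoma arrays correlated at 0.08 over genes, 0.45 for control and DSS and 0.44 for DSS and adenoma arrays. The labels do not say what a number marks, and the arrays were not treated as paired. Markers of fibroblasts, smooth muscle and macrophages were higher on array 2 in the control and the adenoma group, and whether arrays of a number share a batch was not tested.

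Of 177 named genes 167 were called, 118 kept the call and 166 kept the direction in every setting, and 35 of 56 list medians kept their sign. A group of 2 arrays has 1 degree of freedom of its own, and all 3 groups leave 3, so genes of moderate change are near the limit. Intensities near 17.8 lie close to background, and log2 rises from there depend on the pseudocount. Without a second adenoma or control array, the lone array was assumed to vary like the other groups.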

Other observations

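Several further gene groups were put together after their values were seen and are given as values, with no test of a group. How many of their members passed the filter only through the adenoma arrays was not counted. Mt3, Aldh1a3, Rarb and Plagl1 lay below the array median on both control arrays. Such genes may have passed the filter only by being high in adenoma crypts. All 4 tested Ifitm genes, which encode interferon-induced membrane proteins of 1 cluster on chromosome 7 and may share probes, were higher in adenoma crypts, with a median log2 difference of 3.51. Ifitm1 had 149.7 and 186 on the control arrays and 3279 and 5708 on the adenoma arrays (4.56 ± 0.35, adjusted p = 0.000153), and Ifitm3 977 and 1097 against 9197 and 12495.9 (3.35 ± 0.33, adjusted p = 0.000437). The metallothioneins, which bind zinc and copper, were split: Mt3 had 41 and 19.8 against 669 and 1302 (4.34 ± 0.36), whereas Mt1 had 6288 and 8379 against 4575 and 3713 (-0.81 ± 0.19). The call of Mt1 ended without control array 2 (-0.61) or adenoma array 2 (-0.66).

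Retinoid genes changed in both directions. Aldh1a3, an enzyme that makes retinoic acid, had 40.1 and 40.6 on the control arrays and 1613 and 2539 on the adenoma arrays (5.13 ± 0.40, adjusted p = 0.000153), and Rdh10, which makes its substrate, 643 and 457 against 2745 and 2292 (2.17 ± 0.24). Rarb, a retinoic acid receptor, had 6.05 and 9.78 against 151 and 311 (3.20 ± 0.46). Retsat, a retinol saturase, had 468 and 441 against 154 and 119 (-1.62 ± 0.19), and Aldh1a7 790.4 and 1009.8 against 202 and 105 (-2.47 ± 0.29). Of 12 tested genes 4 were higher and 5 lower, and 2 were lower without control array 2 and 3 without adenoma array 2.

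Enzymes of arginine and creatine metabolism were lower in 7 of 12 tested cases and higher in 2, with 5 lower without either control array. Abat, which degrades GABA, had 2963 and 2696 on the control arrays and 477 and 436 on the adenoma arrays (-2.58 ± 0.16, adjusted p = 6.4e-05). Otc, a urea cycle enzyme, had 494 and 398 against 66.6 and 27.6 (-2.90 ± 0.30), and Gatm, which makes the creatine precursor, 498 and 658 against 78.4 and 114 (-2.39 ± 0.25). Of 14 tested imprinted genes 5 were higher and 0 lower, 3 without control array 2 or adenoma array 2. Plagl1, an imprinted zinc finger gene, had 21.4 and 39.9 against 993 and 2336 (5.02 ± 0.54, adjusted p = 0.00063).

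All 7 tested Cyp2d genes were lower (median -1.63), 5 of 7 without control array 2, and with the neighbouring Ndufa6 they formed a run of 8 tested genes on chromosome 15 called lower. These paralogs may share probes. Single arrays stood apart for some genes, named here after their values were seen. Retnlb, a goblet cell protein, had 11922.6 and 323 on the control arrays and 2881 and 834 on the adenoma arrays, so that the control arrays differed more than the groups. Gt(ROSA)26Sor had 919 and 1079 against 30.3 and 540.0 and did not pass (adjusted p = 0.07).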
